A study of Mus musculus with 2 samples.

Results

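The cells described here shared 1 antibody heavy chain and formed the largest B cell clone of the Cre+ library, in which it joined IGHV5-17 to IGHJ4. They were chosen by their measured receptor sequence: a cell barcode of the Cre+ library with exactly 1 productive heavy chain, made of these V and J genes with the CDR3 amino acids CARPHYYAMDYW, whatever its constant gene. There were 62 such cells of 3294 Cre+ cells and of 6241 cells in the whole series. Receptor transcripts had been sequenced from single CD45+ cells of Peyer's patches in a droplet assay, with 1 library for each of 2 genotypes and 4 female mice, labelled adult, pooled in each library. All mice were H2-Ab1 fl/fl. The Cre+ mice also carried Villin:Cre, a recombinase under a promoter active in intestinal epithelial cells, so that H2-Ab1, which encodes a chain of MHC class II, was to be lost from the epithelium. The Cre- mice lacked the recombinase and served as controls. The series text gives the Cre-negative genotype for both groups, and the sample labels were followed here. The files hold receptor contigs only, so loss of H2-Ab1 could not be checked, and cell identity rests on these contigs, with a heavy chain in 3439 of 3748 Cre+ barcodes and 3030 of 3245 Cre- barcodes. The Cre+ library held 355258 UMIs and the Cre- library 355985. Which of the pooled mice a cell came from is not recorded, so it is unknown whether the clone arose in 1 mouse. With a single library per genotype no difference has a replicate check, no test was made, and the intervals given are exact 95% intervals of counting error only.

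B cells that descend from the same founder carry the same joined heavy-chain gene, and the CDR3, the loop encoded at the joint of V, D and J segments, serves as its mark. In Peyer's patches such cells meet antigen from the gut, divide in germinal centres and switch their constant region, most often to IgA. A B cell normally pairs its heavy chain with a single light chain, so cells that descend from such a cell are expected to share the light chain too. Plasma cells, which secrete antibody, hold far more receptor transcript than other B cells. A unique molecular identifier (UMI) marks a captured transcript, so UMI counts here are a measure of captured receptor RNA. Droplet libraries also carry RNA released from broken cells, which can enter the droplet of another cell.

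The joint sequences of the clone are shown first, because the identity of the members rests on them. Capitals in the heavy chain mark the bases between a start and an end that follow the unswitched cells of both libraries. In the other sequences capitals mark bases that differ from the clone.
Clone, heavy chain CDR3: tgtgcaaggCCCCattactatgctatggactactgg
Clone, main light chain CDR3: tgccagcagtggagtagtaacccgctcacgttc
Nearest other IGHV5-17 and IGHJ4 chain, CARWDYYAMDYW: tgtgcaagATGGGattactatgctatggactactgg
Next nearest, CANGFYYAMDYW: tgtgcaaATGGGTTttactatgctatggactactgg

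All 62 members carried the same 36 CDR3 nucleotides, although the rule asked only for the same amino acids. The first 9 bases were found in 95 of 124 unswitched IGHV5-17 chains of other cells, and 1 base more in only 33. The last 23 bases were found in 186 of 1259 unswitched IGHJ4 chains, and 1 base more in only 17. The 4 bases left between these, all C, belonged to neither. No D gene was called in any member, while it was uncalled in 8.63% of the other Cre+ cells (279 of 3232, 7.69 to 9.65) and in 10.6% of the other IGHJ4 cells (81 of 764, 8.51 to 13.0). Because the members share 1 joint, the missing D call is 1 observation and not 62. The CDR3 was 12 amino acids long, a length fixed by the rule, against a median of 14 over the cells of the Cre+ library. Since the rule fixed the amino acids of the CDR3, only a silent change could have shown there. The tables hold no sequence of the V region, so mutation outside the CDR3 was not measured.

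Just outside the rule on sequence lay 4 IgM cells of the Cre+ library with chains of the same V gene, J gene and length, the nearest at 5 mismatches and the farthest at 10. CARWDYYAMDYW differed from the clone at 5 of its 36 positions, all adjoining, namely G9A, C10T, C11G, C12G and C13G, counted from the first base of the CDR3. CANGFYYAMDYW differed at 7 positions. The light chains of these 2 cells used IGKV6-23 and IGKV12-44, neither of them the top light chain of any member. IGKV12-44 was the V gene of a second productive light chain in an IgM member, with 20 UMIs beside 43 of IGKV10-96. The joints of these IGKV12-44 chains were not compared. In the Cre- library, 17 cells joined IGHV5-17 to IGHJ4, and the CDR3 of the clone was found in 0 contigs of any kind. Over its 2947 cells a count of 0 allows a share of up to 0.102%. On the GRCm38.p6 assembly, as given in a RefSeq gene table, the V segment Ighv5-17 lies at chr12:113859149-113859442, the J segment Ighj4 at chr12:113428514-113428567 and the IgA constant gene Igha at chr12:113256204-113260236.

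Of the 60 members with a constant gene called, 53 were IgA, or 88.3% (77.4 to 95.2). IgA was carried by 4.79% of the other Cre+ cells (154 of 3216, 4.08 to 5.58). The clone thus held 25.6% of all 207 IgA cells of the library (19.8 to 32.1). IgM was called in 5 members, IgD in 1 and IgG1 in 1, and no constant gene was called in 2. IgG2b, IgG3, IgG2c and IgE were each found in 0 members, with an exact upper bound of 5.96%. Read by isotype alone, the clone therefore spanned unswitched and switched cells.

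The light chain divided the members along the same line only in part. IGKV4-72 joined to IGKJ5, with the CDR3 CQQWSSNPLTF and 1 nucleotide sequence throughout, was the light chain with the most UMIs in 48 of the 60 members that had a light chain (80.0%, 67.7 to 89.2). By amino acids it was the top light chain of 0.375% of the other Cre+ cells (12 of 3202, 0.194 to 0.654) and of 0.208% of the Cre- cells (6 of 2889, 0.0763 to 0.452). The same nucleotides were found in 9 and 5 of these. Of the 53 IgA members, 47 had it, 5 had another light chain and 1 had none. The IgG1 member had it as well. Of the 6 IgM and IgD members, 0 had it: 5 had another light chain and 1 had none, and both members without a constant gene had another light chain. All 48 members with the main light chain were thus class switched. On GRCm38.p6, Igkv4-72 lies at chr6:69226854-69227383 and Igkj5 at chr6:70723886-70723923.

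**Figure D1:**
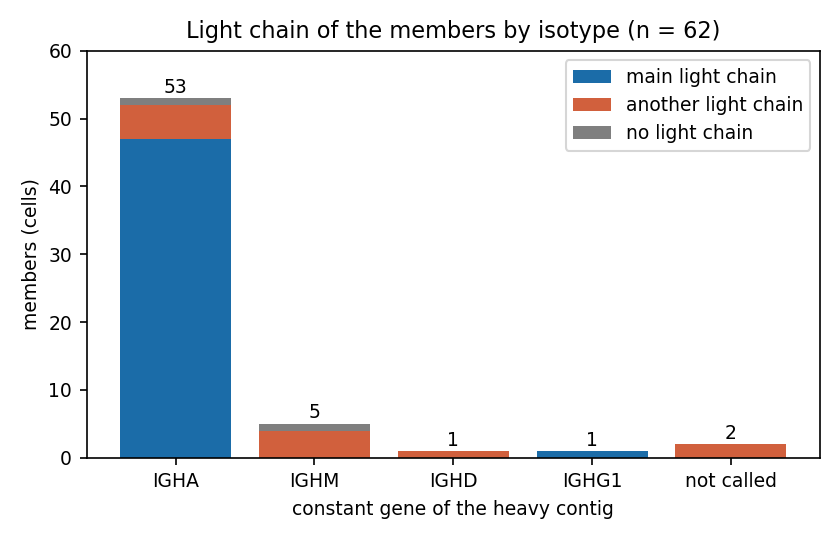
Bars give the number of members (cells) by the constant gene of the heavy contig, split by whether the light chain with the most UMIs was the main one of the clone, another one, or absent. The main light chain was found in 47 of 53 IgA members and in 0 of 6 IgM or IgD members.

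The 12 members with another light chain used 11 different ones as the top chain, all kappa. IGKV3-4 with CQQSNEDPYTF occurred in 2 of them, and each of the rest in 1. IGKV10-96 was found in 3 members with 3 different CDR3s. The other V genes were IGKV1-110, IGKV1-117, IGKV1-135, IGKV17-127, IGKV3-12, IGKV5-48 and IGKV8-19. Joints of most of them were also found in other cells: by nucleotides, the IGKV10-96 chain with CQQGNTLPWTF was the top light chain of 59 other Cre+ cells, and the IGKV3-4 chain of 27. The joint of IGKV1-110 with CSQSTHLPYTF was the top light chain of 0 other cells in either library. Over all contigs of the members, nonproductive ones included, IGKV1-110 was called in 3 members and IGKV5-48 in 2, IGKJ5 in 52, IGKJ2 in 6, and IGKJ1 and IGKJ4 in 2 each, while IGLJ2 was called in 3, IGLJ1 in 2 and no D gene in 2 or more. A constant gene of IgM was called on some contig of 9 members, of IgD on 5, and of lambda (IGLC1, IGLC2) on 2 each; TRBJ1-1, a T cell receptor segment, was called on 4, each time joined to IgM.

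The members with and without the main light chain also differed in the amount of heavy-chain RNA. In the 48 members with it, heavy-chain UMIs ran from 2 to 859 with a median of 9 (interval of the median 7 to 12). In the 12 members with another light chain they ran from 1 to 10 with a median of 2 (1 to 6). All 5 members with a single heavy-chain UMI lacked the main light chain. It was present in 4 of 8 members with 2 or 3 heavy-chain UMIs, in 9 of 13 with 4 to 6, in 33 of 34 with 7 to 31 and in both above that. The share with the main light chain was higher at each step, though the intervals of neighbouring steps overlapped.

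Light-chain UMIs had the opposite order. The main light chain had a median of 6.5 UMIs (5 to 8) in the members that carried it, and the other light chains a median of 12 (7 to 31). Divided cell by cell, light over heavy UMIs gave a median ratio of 0.625 (0.429 to 0.889) in the former and 7.08 (4 to 16) in the latter. The ratio was at or below 1 in 37 of 48 members with the main light chain and in 1 of 12 with another. In the IgM members with a light chain, heavy and light UMIs stood at 2 and 8, 2 and 40, 6 and 28, and 6 and 43. The IgD member had 3 and 12. The exception among members with another light chain was an IgA cell with 10 heavy-chain UMIs and 2 UMIs of an IGKV10-96 chain, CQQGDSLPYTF, which was the top light chain of 1 other Cre+ cell.

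**Figure D2:**
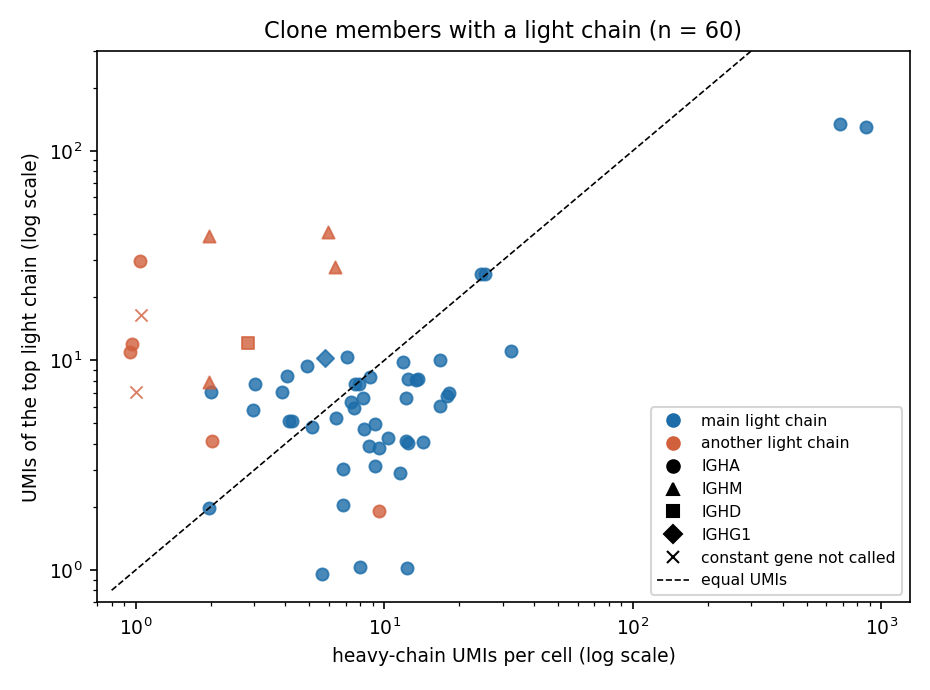
Each point is 1 of the 60 members with a light chain, placed by its heavy-chain UMIs and the UMIs of its top light chain, both on log scales and shifted slightly so that equal values can be seen. Colour gives the light chain, shape the constant gene, and the dashed line equal counts; members with another light chain lie above the line but for 1, and 2 IgA members lie far to the right at 703 and 859 heavy-chain UMIs.

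Against other cells, the members with the main light chain had little light-chain RNA. The median light to heavy ratio was 2.56 (2.33 to 3) in the 150 other IgA cells of the Cre+ library with both chains and 3.46 (3.31 to 3.62) in its 2885 unswitched cells with both chains. Only 10.7% of the former (6.22 to 16.7) and 7.42% of the latter (6.49 to 8.44) were at or below 1, against 77.1% (62.7 to 88.0) of the members with the main light chain. The ratio of the members with another light chain lay above both. Heavy-chain UMIs were lower as well when set against cells of the same isotype: these members had a median of 9 (7 to 12) and other IgA cells 18.5 (14 to 20). Unswitched cells had a median of 8. Light-chain medians were 6.5, 45.5 (36 to 54) and 29 (28 to 30) in the same order. The largest clone of the Cre- library, 417 cells that joined IGHV4-1 to IGHJ3, had a still lower median ratio of 0.263 (0.250 to 0.286), with 98.98% of its cells at or below 1. Each clone is 1 lineage measured in many cells, which the intervals do not cover. Reads per heavy-chain UMI differed little between these groups, with medians of 114 in the members with the main light chain, 105 in other IgA cells, 110 in unswitched cells and 111 in the Cre- clone.

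**Figure D3:**
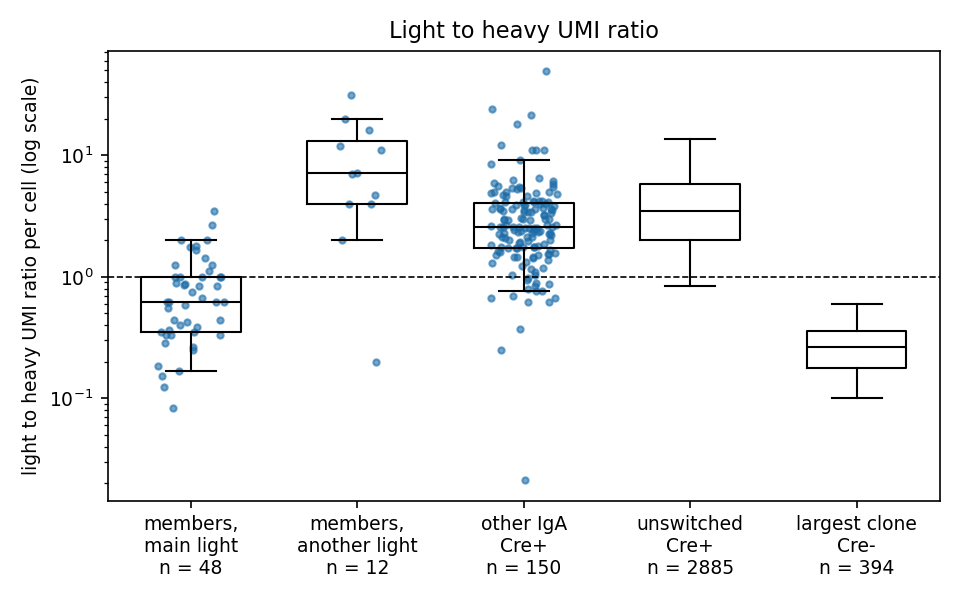
The vertical axis gives the ratio of light to heavy UMIs per cell on a log scale for cells with both chains; boxes span the quartiles with the median as a line, whiskers the 5th to the 95th percentile, and points single cells in the smaller groups. Members with the main light chain have a median of 0.625 and those with another light chain 7.08, against 2.56 in other IgA and 3.46 in unswitched Cre+ cells and 0.263 in the largest Cre- clone.

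A pair of IgA members held most of the heavy-chain RNA of the clone. They had 703 and 859 heavy-chain UMIs, together 1562 of the 2071 UMIs of all members (75.4%), and no other member exceeded 31. Both carried the main light chain, at 129 and 131 UMIs, which made ratios of 0.184 and 0.153. The Cre+ library held 34 other cells with over 100 heavy-chain UMIs, and the 33 of these with a light chain had ratios of 0.807 to 50.01 with a median of 2.52 (1.87 to 3.24). Both members thus lay below all 33 of these cells in this ratio. Of the 36 Cre+ cells over 100 heavy-chain UMIs, the pair included, 12 were IgA, so most of the cells compared were not. They had 117 and 97.9 reads per heavy-chain UMI, in the range of the other members, whereas the 34 other cells had a median of 29.1 (18.4 to 89.1). The part of read depth in the ratio was not tested. Without them, the median light to heavy ratio over all members changed from 0.845 to 0.866.

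Members with the main light chain also had few further contigs. Exactly 2 contigs, 1 heavy and 1 light, were found in 45 of the 48 (93.75%, 82.8 to 98.7). Of the 14 members without that light chain, 7 had exactly 2 contigs, among them both members without a light chain, whose second contig was nonproductive. The median number of contigs was 4 in other IgA cells and 3 in unswitched Cre+ cells. Summed over all contigs, members with the main light chain had a median of 14.5 UMIs (13 to 18), against 80 (66 to 97) in other IgA cells and 46 (45 to 47) in unswitched cells. Few of them held a nonproductive contig, one not called as a complete and readable chain: 3 of 48 such members had one (6.25%, 1.31 to 17.2), against 135 of 154 other IgA cells (87.7%, 81.4 to 92.4) and 72.2% of unswitched cells (70.5 to 73.8). The largest Cre- clone was like these members in both traits, with exactly 2 contigs in 387 of 417 cells (92.8%, 89.9 to 95.1) and a nonproductive contig in 17 (4.08%, 2.39 to 6.45). Cells of a clone share their rearranged genes, so these counts describe 1 lineage each and not 48 and 417 independent cells. The intervals do not cover this.

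A nonproductive contig with a lambda chain call or lambda constant gene was found in 112 of 154 other IgA cells and in 48.0% of unswitched Cre+ cells (46.2 to 49.8), against 2 of 48 members with the main light chain. A range of 4 to 31 heavy-chain and at most 27 light-chain UMIs, the span of most of these members, was set after the data had been seen. Within it a nonproductive lambda contig was found in 2 of 42 members with the main light chain (4.76%, 0.582 to 16.2). It was found in 25 of 39 other IgA cells (64.1%, 47.2 to 78.8) and in 43.0% of 1097 unswitched cells (40.1 to 46.0). Light-chain UMIs were still unlike within this range, with a median of 6 in the members and 18 in each of the other groups. At 4 to 8 light-chain UMIs, a lambda contig was found in 2 of 27 members (7.41%, 0.910 to 24.3), 2 of 5 other IgA cells (40%, 5.27 to 85.3) and 37 of 115 unswitched cells (32.2%, 23.8 to 41.5), and the intervals overlapped. The part of transcript level in this difference was not tested further. The largest Cre- clone again resembled the IGHV5-17 clone, with 1 of 335 cells in the wider range (0.299%, 0.00756 to 1.65) and a light-chain median of 5 UMIs. Unswitched Cre- cells stood at 45.6% (41.9 to 49.3) and 18 UMIs. At 4 to 8 light-chain UMIs the Cre- clone had 1 of 193 (0.518%, 0.0131 to 2.85) and unswitched Cre- cells 23 of 48 (47.9%, 33.3 to 62.8). These intervals did not overlap, though median heavy-chain UMIs were 18 and 7. Here too each clone is 1 lineage, which the intervals do not cover.

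**Figure D4:**
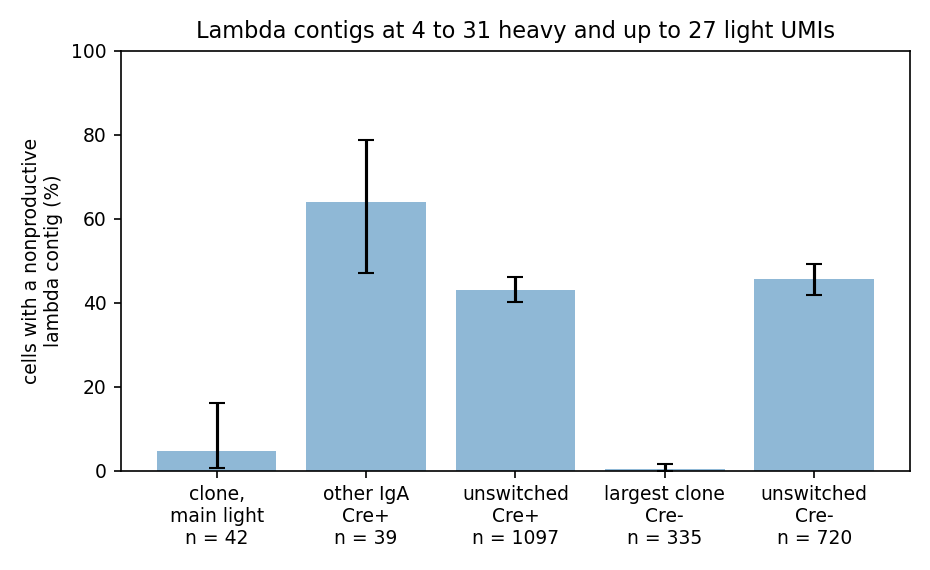
Bars give the percentage of cells with a nonproductive lambda contig among cells with 4 to 31 heavy-chain and up to 27 light-chain UMIs, and error bars the exact 95% interval. Both largest clones, at 4.76% and 0.299%, stand below the other groups, which lie between 43.0% and 64.1%.

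A nonproductive lambda contig was found in 2 of the 14 members without the main light chain (14.3%, 1.78 to 42.8). The interval overlapped that of the 48 members with it (4.17%, 0.509 to 14.25). The share was also below those of other IgA and unswitched Cre+ cells given above. Contigs of the IgM or IgD class differed more between the members. A nonproductive contig with an IgM or IgD constant gene was found in 7 of these 14 (50%, 23.0 to 77.0), in 1 of the 48 others and in 25.8% of unswitched Cre+ cells (24.2 to 27.4). Other IgA cells had one in 10 of 154 (6.49%, 3.16 to 11.6), an interval that overlapped that of the 48 (2.08%, 0.0527 to 11.1). The 48 were all class switched, while the 14 included 6 IgM or IgD members. An IgA member with a single heavy-chain UMI and an IGKV1-117 light chain also held a nonproductive IGHV1-75 to IGHJ2 chain of the IgD class with 2 UMIs. An IgM member with 6 heavy-chain UMIs and an IGKV1-135 light chain held an IgD contig without a V segment and, with 1 UMI, a contig that joined IGHJ4 to IgA. The only such contig beside the main light chain was in the IgG1 member, which also had a second productive light chain, IGKV1-110 with 4 UMIs beside 10 of IGKV4-72. Contigs whose chain was called as a T cell receptor were found in 2 members, each with 1 UMI and without a V segment, and in 3.65% of unswitched cells. This count leaves out the TRBJ1-1 contigs named above and a TRAJ49 contig joined to IgD, whose chain call was mixed.

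Lengths of the heavy contig overlapped between IgA and IgM or IgD members only through an IgM contig of 533 bases, from a member with 2 heavy-chain UMIs. The other IgM and IgD contigs had 698 bases or more, above the longest IgA contig. The contigs of IgA members ran from 496 to 697 bases with a median of 609 (609 to 610), and those of IgM and IgD members ran from 533 to 732 bases with a median of 708.5. The pair with over 700 UMIs each had contigs of 697 bases. Both members without a constant gene had a single heavy-chain UMI and the shortest contigs, 481 and 482 bases.

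Just outside the rule on a single heavy chain lay 15 further barcodes in which the clone's chain stood beside another productive heavy chain. They were 15 of the 145 Cre+ barcodes with 2 or more heavy chains, and the next most frequent chain among these was found in 5. In 10 of the 15 the clone's chain had 2 UMIs. In 12 the other heavy chain had more UMIs, and the main light chain of the clone was absent from all 12. There the clone's chain had 2 to 5 UMIs, and the highest other light chain 2 to 73 UMIs with a median of 31. In the other 3 barcodes the clone's chain had 5, 9 and 15 UMIs, more than its partner, and the main light chain was present with 4, 6 and 7 UMIs. It was the top light chain in only 1 of these 3, since the barcodes of 5 and 15 UMIs also held another light chain with 16 and 24 UMIs. Among these 15, the clone's light chain was thus found only where its heavy chain had the most UMIs.

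**Figure D5:**
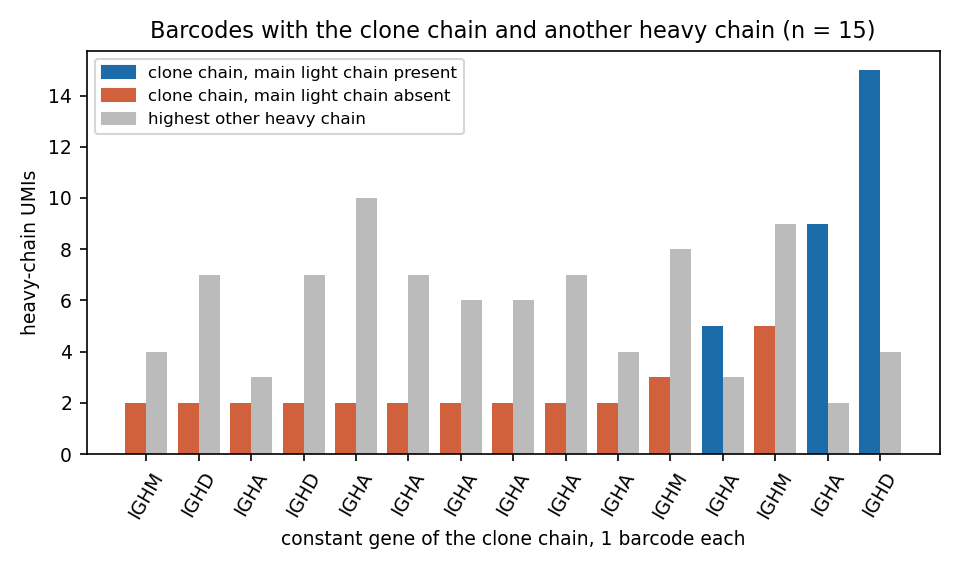
Each pair of bars is 1 of 15 Cre+ barcodes with the clone's chain and another productive heavy chain, and shows the UMIs of the clone's chain (coloured) and of the highest other heavy chain (grey), with the constant gene of the clone's contig below. The clone's chain is higher in 3 barcodes, those with the main light chain, and lower in 12 without it.

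The constant gene of the clone's chain varied among these 15, with IgA in 9, IgM in 3 and IgD in 3. In 5 of the 6 with IgM or IgD the other heavy chain of the barcode, or one of them, had the same constant gene. Of the 9 with IgA, 1 matched in this way. Over both sets the clone's chain was found in 77 barcodes, and its main light chain was present, as the top chain or not, in 51 of them. Of the 51, IgD was called on the clone's chain in 1, the barcode of 15 UMIs, which also held 2 other heavy chains. None of the 51 had IgM on that chain. Whether RNA from other droplets, captured pairs of cells or joining of unlike templates during amplification gave these barcodes was not tested.

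The clone's light chain was also found in barcodes without the clone's heavy chain. The identical IGKV4-72 joint was present in 29 further Cre+ barcodes and in 6 Cre- barcodes. Of the 29, 23 held 1 productive heavy chain and 6 held none. Those 6 Cre+ barcodes cannot be placed inside or outside the clone. The joint was the only light chain in 13 of the 29, with 1 to 32 UMIs and a median of 6. How many of these 13 lacked a heavy chain is not given here. In 16 it stood beside another light chain, with 1 to 3 UMIs and a median of 2. In the Cre- library it was the only light chain in 5 of 6 barcodes, with 12 to 28 UMIs. The same joint was thus the only light chain of some barcodes in both libraries, while counts of 1 to 3 beside another chain were seen in the Cre+ library alone, a difference between single libraries that was not tested.

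Cells whose main light chain is lambda gave a background for this, since they are not expected to use a kappa chain. Of 149 such Cre+ cells, 25 held a productive kappa chain, and 9 of these held the clone's (6.04%, 2.80 to 11.2). The next most frequent kappa chain, an IGKV10-96 joint, was found in 4. In the Cre- library 20 of 122 lambda cells held a kappa chain, 0 held this one (exact upper bound 2.98%), and the most frequent was the IGKV9-123 chain, found in 4, the V gene of that library's own largest clone. The clone's light chain had at most 3 UMIs in the 9 lambda cells that held it. Cells in which it exceeded the lambda chain were left out by the choice of cells, which sets part of this bound. Members in which it had 1 to 3 UMIs cannot be told apart from this background by the light chain alone. They were kept among the 48 members with the main light chain, in which the lower quartile of its UMIs was 4.

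In the authors' deposited table the largest clonotype of the Cre+ library, which pairs this heavy chain with the IGKV4-72 chain, held 47 barcodes, and the next clonotype in the table held 15. The clone's heavy chain occurred there in 29 clonotypes with 77 barcodes in all, and 26 of the 29 were of a single barcode. The barcodes outside the largest clonotype were thus spread over small ones in that table.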

How the data were processed

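Per the labels, CD45+ cells were enriched magnetically, pooled by genotype, loaded on a Chromium controller and made into libraries with a V(D)J kit. Cell Ranger (version not given) and GRCm38 come from the submitters' processing notes. Counts of reads and UMIs per contig, and of barcodes per clonotype, were used as deposited by the authors, without normalisation; all contigs carry the flags for called cells and high confidence. Of all barcodes, 10 occur in both libraries, 1 of them a member. Cells were barcodes with exactly 1 productive heavy chain by CDR3 nucleotides; no doublet caller was run. The light chain was the productive one with the most UMIs. Shares have exact Clopper-Pearson intervals and medians intervals from order statistics, at 95%; PCR and shared droplets are not covered. Where a count was 0, 3 counts of the total or the exact upper bound is given. At the joint, start and end ran until fewer than 50% of chains that held a stretch also held the next base. Constant, D and light-chain genes called in at least 2 members were named. The members, lists and comparisons were chosen with earlier results of these data known. Python 3.11.15, pandas 2.3.3 and SciPy 1.17.1 were used, and counting was tested on simulated data.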

Additional observations from a re-analysis of the deposited data

How the results depend on the processing

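Of 55 values under other settings, 46 lay within the interval of the main value. The clone held 62 cells, or 1.88% of Cre+ cells. Counted as the largest deposited clonotype it was 1.43%. Barcodes with more heavy chains, a minimum of 3 UMIs and a lineage at 85% identity gave 2.24%, 1.72% and 1.94%. That lineage held 64 cells. Of the near chains described above, only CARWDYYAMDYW (86.1%) reached 85% identity to the clone itself. The IgA share, 88.3%, was 97.9% among members with the main light chain only. The main light chain share, 80.0%, was 65.3% when barcodes with 1 or more heavy chains were counted by their top light chain, 92.2% for heavy contigs with 3 or more UMIs and 90.4% for IgA members. Nonproductive contigs were found in 19.4% of members, in 6.25% of those with the main light chain and in 6.98% of those with 4 to 31 heavy-chain and up to 27 light-chain UMIs; at 4 to 8 light-chain UMIs this share was 7.41%, and 0% of the 27 members there had several light chains, a range that by construction leaves out those with none. The exclusion of 2 members with over 100 heavy-chain UMIs and the ranges of UMIs were added after the data were seen. The 14 members without the main light chain are too few to compare isotypes among them, and light chains of 1 to 3 UMIs are at the level seen in lambda cells. No paired analysis was possible because each genotype has 1 pooled library.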

Other observations

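The barcodes of the members differed from each other at 5 or more of their bases, and those of the pair with over 700 heavy-chain UMIs differed from all other members at 7 or more. In the Cre- library the chain of the largest clone was found beside another heavy chain in 3 of 83 barcodes with 2 or more heavy chains, although that clone had 417 members, against 15 of 145 for the IGHV5-17 clone with 62 members. No cell of the largest Cre- clone exceeded 57 heavy-chain UMIs.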
